A study of Mus musculus with 13 samples.

Results

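The clustered protocadherin genes lie in 3 neighbouring groups, Pcdha, Pcdhb and Pcdhg, on mouse chromosome 18. Their CpG methylation was measured here by reduced representation bisulfite sequencing, which reads methylation in CpG-rich fragments released by a restriction enzyme. The locus was taken as all CpGs from 37080000 to 38020000 of chromosome 18 (mm9), split at 37400000 and 37750000 into an alpha, a beta and a gamma section. It held 2527 CpGs with a read in any of the 13 libraries, of 3340630 in all, with 698, 534 and 1295 in the 3 sections. These CpGs fell into 300 tiles of 1 kb, and 48 tiles had at least 20 reads and 2 CpGs in each of the 13 libraries: 13 alpha, 6 beta and 29 gamma tiles, of 92, 98 and 110 with any read. The remaining tiles were too thinly read in some library, and the values below describe the 48.

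Protocadherins of these clusters are adhesion proteins of the neuronal surface. Each alpha and gamma gene has a promoter and a variable exon of its own, spliced to constant exons shared by its cluster, whereas each beta gene is a gene of its own without constant exons. A neuron expresses a few of the alternative promoters, and CpG methylation of a promoter, laid down in the early embryo largely by the methyltransferase Dnmt3b, goes with its silence and interferes with binding of the insulator protein CTCF. RefSeq (GRCm38) lists 14 alpha, 22 beta and 22 gamma genes, from Pcdha1 to Pcdhac2, Pcdhb1 to Pcdhb22 and Pcdhga1 to Pcdhgc5. In that order Slc25a2 and Taf7 stand between the beta and gamma genes and Diaph1 follows the last gamma gene, so a tile of the locus may belong to these. Because the annotation used here is of another build than the files, tiles are given by position and section, and which gene a tile belongs to was not assigned.

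The libraries were made from genomic DNA of mouse embryonic fibroblasts labelled male (MEF, 2 libraries) and of induced pluripotent stem cells (iPSC). Others came from cells labelled male, from reprogramming, that were negative or positive for the pluripotency surface antigen SSEA1 (1 library each). The iPSC were male (3 libraries), female and labelled XO, with a single X chromosome (4 libraries), or female and labelled XaXa, with a pair of active X chromosomes (2 libraries). iPSC had been freed of feeder cells. The labels give no strain, line, passage or time of sorting, and do not say which libraries came from separate cultures. The exact permutation p-values therefore measure the spread between these libraries, which may in part be technical. The p-values of single tiles rest on a spread shared over groups and moderated across all tiles, not on that tile's libraries alone.

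Total reads over CpGs ranged from 4784488 (XO 9) to 143148634 (XaXa 8), and reads over the locus from 3581 to 117604 in the same libraries. The median over the 48 tiles was 39 reads in XO 9 and 70 to 1458 in the others. Depth on X relative to the male iPSC was 1.403 and 1.53 in the XaXa libraries. For XO 3, 5, 6 and 9 it was 1.37, 1.20, 1.17 and 1.35, and it was 1.55 in MEF 5 against 1.08 in MEF 4. Y reads were 0.0219% of autosomal reads in MEF 5, against 0.0793% to 0.109% in the other libraries labelled male and 0.0397% to 0.0485% in the female iPSC. XO 3, XO 9 and MEF 5 therefore stand apart from their labels. XO 5, at 1.20, lay close to XO 6, at 1.17, and X depth did not set these libraries apart from each other. Levels of the locus, counts of called tiles and the largest tile differences are also given without MEF 5. They are given as well without XO 3, 5 and 9, which leaves only XO 6 among the XO libraries. Relative depth of chromosome 18 was 0.950 to 1.10. A window placed at the Pou5f1 promoter, which is methylated in fibroblasts, was at 61.5% to 66.7% in the MEF and SSEA1 libraries, 5.86% to 15.7% in XaXa and male iPSC, and 24.1% to 66.1% in XO, where XO 3 had the highest level; it held 13 to 631 reads.

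Methylation of the locus was lower in all iPSC than in fibroblasts, and lowest in XaXa iPSC. The level of a tile is the percent of its reads that are methylated, and the level of a section is the unweighted mean over its tiles. Over the 48 tiles MEF 4 had a level of 52.0% and MEF 5 of 55.6%. SSEA1 negative cells were at 55.2% and SSEA1 positive cells at 54.7%. It was 29.04%, 32.4% and 39.5% in male iPSC 1, 2 and 4, and 38.3%, 33.3%, 36.0% and 28.0% in XO 3, 5, 6 and 9. XaXa 7 and 8 were at 20.7% and 15.01%. No iPSC library reached the level of any MEF or SSEA1 library, both XaXa libraries lay below the other iPSC, and the XO and male iPSC ranges overlapped.

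**Figure D1:**
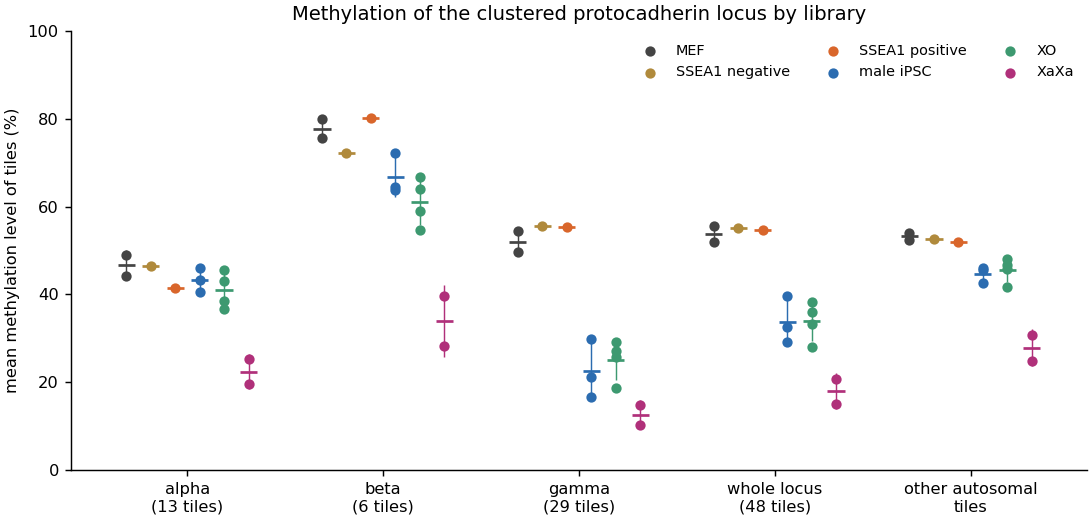
Mean methylation level (%) of the tiles of each section, of the whole locus and of the other autosomal tiles, for each library (points), with the group mean (horizontal bar) and SD (vertical line, groups of 2 or more). In the gamma section the 3 male iPSC lie between 16.5% and 29.9%, below both MEF at 49.7% and 54.4%, while in the alpha section the male iPSC range of 40.6% to 46.0% overlaps that of MEF.

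The first comparison follows reprogramming in cells labelled male, from MEF to male iPSC. X and Y depth of MEF 5 stood apart from this label. The gamma section had much less methylation after reprogramming, with MEF at 52.02% ± 3.32 (SD, n = 2) and male iPSC at 22.5% ± 6.78 (SD, n = 3). The difference was -29.5 points, with all 3 iPSC below both MEF (exact two-sided permutation p = 0.1, the smallest that 10 arrangements allow). The alpha section differed little as a whole, at 46.6% ± 3.39 (SD, n = 2) and 43.2% ± 2.71 (SD, n = 3), and the groups overlapped (exact permutation p = 0.4). The beta section was at 77.8% ± 3.14 (SD, n = 2) and 66.8% ± 4.69 (SD, n = 3), a difference of -10.97 points (exact permutation p = 0.2). Without MEF 5 the difference was -0.988 points in alpha and -13.2 points in beta. Over the locus the difference was -20.1 points (exact permutation p = 0.1). Without MEF 5 it was -18.3 points over the locus and -27.2 points in gamma (exact permutation p = 0.25 for each, the smallest that 4 arrangements allow). These p-values belong to 24 exact tests of levels, and after Benjamini-Hochberg adjustment over them none was under 0.24.

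The other autosomal tiles that passed the same filter, 41246 in number, differed less. Their mean level was 53.2% ± 1.14 (SD, n = 2) for MEF, and for male iPSC it was 44.7% ± 1.76 (SD, n = 3). The locus stood 0.571 ± 1.39 points (SD, n = 2) above them in MEF and 11.01 ± 4.0 points (SD, n = 3) below them in male iPSC, so the values relative to the other tiles, 0.571 and -11.01, differed by -11.6 points with no overlap (exact permutation p = 0.1). The other autosomal tiles were also weighted to the locus tiles' shares of 3 classes: under 10 CpGs, 10 to 39 CpGs and 40 or more CpGs. Against these tiles, named here as of like CpG number, the difference in relative values was -10.3 points (exact permutation p = 0.2). The class of 10 to 39 CpGs held 38 locus tiles, so CpG number was matched only coarsely. MEF 4 alone stood at -0.41 points relative to the other tiles and at -2.57 points relative to those of like CpG number. The gamma section exceeded the alpha section by 5.39 ± 0.0745 points (SD, n = 2) in MEF, while in male iPSC the gamma minus alpha value was -20.7 ± 4.12 points (SD, n = 3). These values did not overlap (difference -26.1 points, exact permutation p = 0.1; adjusted 0.267 over 24 such contrasts).

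Tile by tile, 24 of 48 were lower in male iPSC than in MEF and 1 was higher in a quasi-binomial model fitted over all 42519 tiles, where a call needed an adjusted p below 0.05 and 10 points or more between the group means. Of all tiles, 23.7% were lower and 4.94% were higher by the same rule. By section, 20 of 29 gamma, 3 of 13 alpha and 1 of 6 beta tiles were lower, and the higher tile was in alpha. The median difference was -32.7 points over the gamma tiles and -3.50 and -3.48 points over the alpha and beta tiles, against -3.24 points over all tiles. Without MEF 5 the gamma count was 14 and the count for the locus was 16 lower and 1 higher. Without male iPSC 4, the most methylated male iPSC library in the gamma section, 23 gamma tiles were lower. For counts with a library left out, the share over all tiles is not given here.

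**Figure D2:**
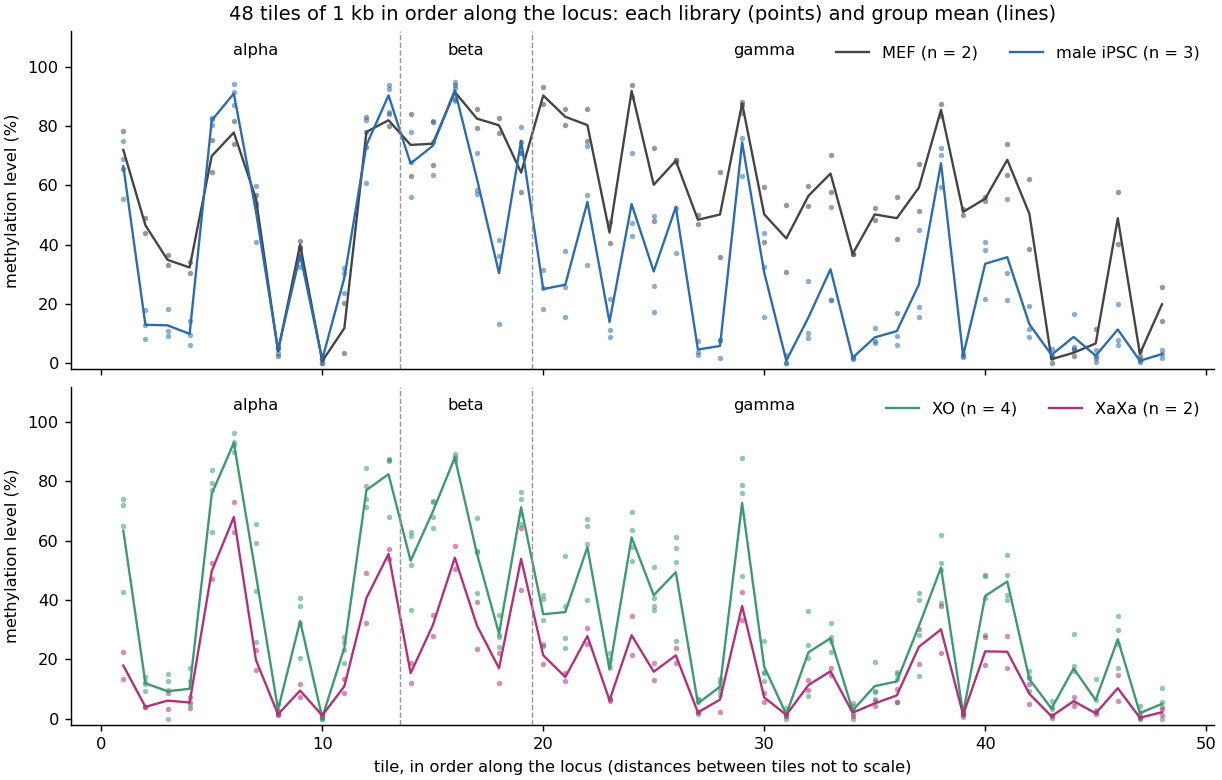
Methylation level (%) of the 48 tiles in order along the locus, for MEF and male iPSC (top) and for XO and XaXa iPSC (bottom). Points are libraries, lines are group means, and dashed lines divide the sections. In most gamma tiles the MEF line lies far above the male iPSC line, whereas the lines run closer together in most alpha and beta tiles. The XaXa line lies below the XO line at methylated tiles in all 3 sections.

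The largest loss was at chr18:37790001-37791000 (mm9), a gamma tile with 51 CpGs and the first gamma tile measured. It was at 87.5% and 93.2% in MEF 4 and 5, and at 18.2%, 25.4% and 31.6% in male iPSC 1, 2 and 4. MEF and male iPSC were far apart here, with a difference of -65.3 points (adjusted p = 2.68e-05 in the quasi-binomial model). The SSEA1 negative and positive libraries were at 75.5% (95% Wilson interval 65.95 to 83.1) and 78.6% (67.6 to 86.6).

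A different kind of gamma tile was intermediate in MEF and almost unmethylated in iPSC. The tile at chr18:37915001-37916000, with 30 CpGs, was at 52.2% and 50% in MEF 4 and 5. It was at 2.5%, 3.23% and 2.20% in male iPSC 1, 2 and 4, a difference of -48.4 points (adjusted p = 2.94e-05). Levels in the 4 XO libraries were 0.735% to 2.56%, and in XaXa 7 and 8 they were 1.67% and 1.12%, so that all 9 iPSC libraries lay under 4%. SSEA1 negative cells were at 54.9% (95% Wilson interval 49.8 to 59.9) and SSEA1 positive cells at 43.4% (38.1 to 48.9). The intermediate level was also seen at single CpGs: in MEF 5, of 9 CpGs with at least 10 reads, 8 lay between 20% and 80%, with a median of 45.5%. In XaXa 8 the highest of 9 such CpGs was at 2.19%, and in male iPSC 4 it was at 2.82%. In bulk DNA, some methylated cells or alleles and partial methylation in each cannot be told apart.

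The tile at chr18:37907001-37908000, which had 43 CpGs, followed the same course. It was at 41.96% and 55.99% in MEF 4 and 5, at 6.37%, 9.34% and 17% in male iPSC 1, 2 and 4, and at higher levels in SSEA1 negative cells, at 58.1% (95% Wilson interval 54.1 to 62.02), and SSEA1 positive cells, at 64.5% (60.7 to 68.1). MEF and iPSC did not overlap (difference -38.1 points, adjusted p = 0.000179). In MEF 5, 16 of its 19 CpGs with at least 10 reads lay between 20% and 80%. The tile at chr18:37867001-37868000 varied more between the MEF libraries, at 36.0% and 64.4%, but all 3 male iPSC were at 8% or less (difference -44.3 points, adjusted p = 0.000207).

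In all, 11 of the 48 tiles were over 30% in both MEF and under 20% in all 3 male iPSC, 8 of them in gamma and 3 in alpha. They had 12 to 43 CpGs and MEF levels of 30.6% to 64.4%. This was 22.9% of the tiles of the locus, against 3.06% of other autosomal tiles; the bounds were chosen after seeing the values. All 11 were under 20% also in the XO and XaXa iPSC, with a highest iPSC level of 19.3%. All 11 were over 20% in both SSEA1 libraries, at 20.6% to 64.5%. The 3 alpha tiles lie close together, at chr18:37099001-37100000, chr18:37106001-37107000 and chr18:37120001-37121000. They were at 46.6% ± 3.48, 34.9% ± 2.27 and 32.4% ± 2.54 in MEF (SD, n = 2) and at 13.03% ± 4.77, 12.9% ± 4.82 and 9.99% ± 4.09 in male iPSC (SD, n = 3), and they are the alpha tiles that were called lower. Without MEF 5 only 1 alpha tile was called lower. The gamma tile at chr18:37822001-37823000, outside this set, fell from a higher level, with 80.5% and 85.9% in MEF 4 and 5 and 15.7%, 25.9% and 38.01% in male iPSC 1, 2 and 4 (difference -56.6 points, adjusted p = 0.000479).

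Apart from the 3 alpha tiles above and 1 beta tile, no alpha or beta tile was called lower. The tile at chr18:37703001-37704000 was the beta tile called lower. It fell from 82.9% and 77.7% in MEF 4 and 5 to 41.7%, 13.3% and 36.2% in male iPSC 1, 2 and 4 (difference -49.9 points, adjusted p = 0.000527). At chr18:37645001-37646000, also in beta, the levels were 85.7% and 79.4% in MEF and 57.0% to 71.1% in male iPSC, with no overlap but an adjusted p of 0.0546. The beta tile with 25 CpGs at chr18:37524001-37525000 was almost fully methylated, with MEF at 91.5% ± 3.48 (SD, n = 2) and male iPSC at 92.1% ± 3.24 (SD, n = 3). The tile that rose was in alpha, at chr18:37304001-37305000 (39 CpGs), from 3.41% and 20.4% in MEF 4 and 5 to 23.8%, 30.5% and 32.3% in male iPSC 1, 2 and 4 (difference 16.97 points, adjusted p = 0.0348). The MEF libraries lay far apart at this tile. Its CpGs with at least 10 reads numbered 11 and 26 in MEF 4 and 5, with medians of 0% and 14.4%. In male iPSC 1, 2 and 4 there were 11, 3 and 19 such CpGs, with medians of 10%, 0% and 31.25%. Whether the rise depends on which CpGs each library read was not tested. Without MEF 4 the difference was 8.49 points (adjusted p = 0.429), without male iPSC 2 or 4 the adjusted p was 0.0746 or 0.102, and it was 0.0788 when these 2 groups were fitted alone. Without MEF 5 the difference was 25.4 points (adjusted p = 0.0147). Without MEF 5 the lower tiles starting at 37703001, 37790001, 37822001, 37867001, 37907001 and 37915001 differed by -62.4 to -30.1 points (adjusted p 0.000779 to 0.0228).

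A few tiles had little methylation in any group. In 4 tiles no library reached 20%: chr18:37249001-37250000 and chr18:37303001-37304000 in alpha, and chr18:37966001-37967000 and chr18:37984001-37985000 in gamma. Their highest single values were 10.7%, 2.70%, 5.84% and 10.5%. The third of them, with 65 CpGs, had more CpGs than any other tile measured in the locus. MEF 4 and 5 were at 2.56% and 0.305%, with 1.74% to 4.91% in male iPSC, 0.840% to 5.84% in XO and 0.368% and 1.29% in XaXa. The alpha tile at chr18:37303001-37304000 is next to the tile that rose, and its levels were 0% to 2.70% over the 13 libraries.

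**Figure D3:**
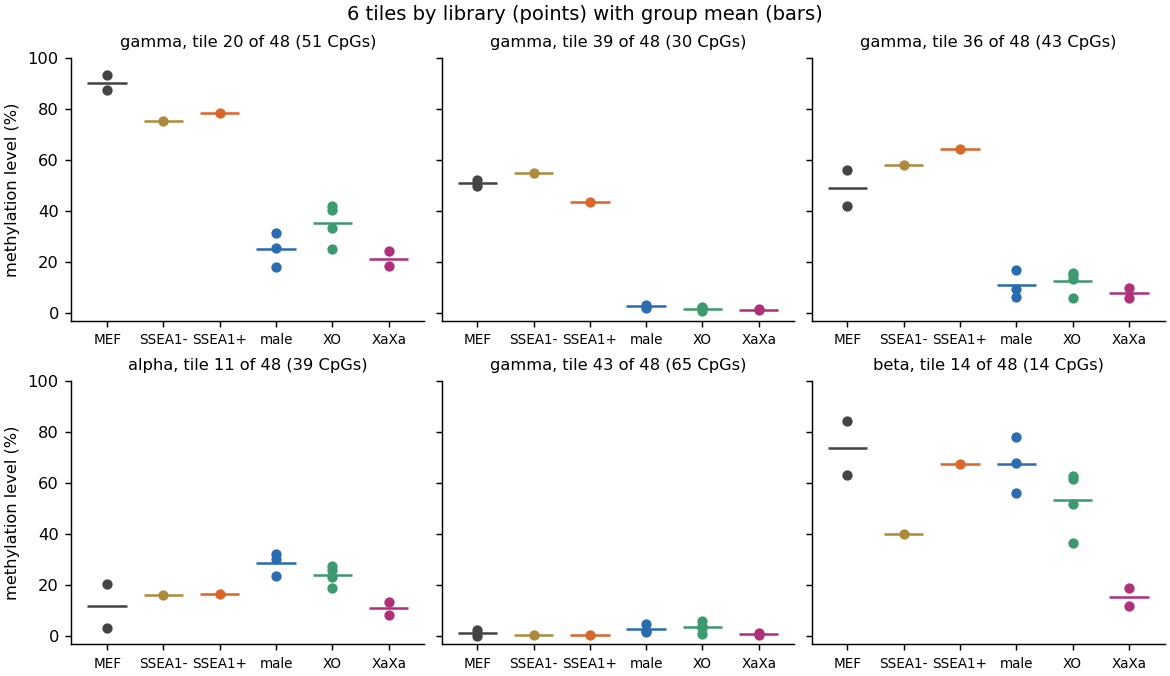
Methylation level (%) of 6 tiles for each library (points) with the group mean (bar), by group along the horizontal axis; "male" is male iPSC. In tiles 20, 36 and 39 of 48, in gamma, all iPSC lie below MEF and both SSEA1 libraries. Tiles 36 and 39 are at 17% or less in all iPSC, while tile 20 is at 18.2% to 41.9%. Tile 11, in alpha, is higher in male iPSC than in MEF, tile 43 is under 6% in all libraries, and tile 14, in beta, is low in XaXa.

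The SSEA1 libraries, taken during reprogramming, resembled MEF in the gamma section. With 1 library each they give values and no test. The gamma level was 55.5% in the SSEA1 negative and 55.4% in the SSEA1 positive library, against 49.7% and 54.4% in MEF 4 and 5. Of the 29 gamma tiles, 28 in the SSEA1 negative and 26 in the SSEA1 positive library were nearer to the MEF mean than to the male iPSC mean. Over the locus these shares were 79.2% and 72.9% of tiles, against 67.2% and 65.1% of other autosomal tiles. Their median distance from the MEF mean in the gamma section was 7.20 and 7.52 points, while it was 36.3 and 34.2 points from the male iPSC mean. The median distance between MEF 4 and 5 was 6.86 points, which is between single libraries and not from their mean. In the beta section 1 of 6 tiles in the SSEA1 negative and 2 of 6 in the SSEA1 positive library were nearer to MEF. The median distances there were 10.99 points from MEF and 5.34 from male iPSC in the SSEA1 negative library. They were 5.04 and 10.04 points in the SSEA1 positive library, whose beta level of 80.1% was above both MEF. In the alpha section the SSEA1 positive library was at 41.5%, below both MEF (44.2% and 49.03%) and within the range of male iPSC.

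The second comparison sets XaXa against XO iPSC, and asks whether an additional active X goes with lower methylation here as across the genome. The locus level was 33.9% ± 4.44 (SD, n = 4) for XO, and for XaXa it was 17.9% ± 4.04 (SD, n = 2), a difference of -16.01 points with both XaXa below all 4 XO libraries (exact permutation p = 0.0667, the smallest that 15 arrangements allow). All 3 sections were lower. The difference was -18.6 points in alpha, with XO at 40.9% ± 4.09 (SD, n = 4) and XaXa at 22.4% ± 3.91 (SD, n = 2). It was -27.2 points in beta, with 61.1% ± 5.33 (SD, n = 4) and 33.9% ± 8.16 (SD, n = 2). In gamma it was -12.5 points, with 25.1% ± 4.61 (SD, n = 4) and 12.5% ± 3.25 (SD, n = 2). XaXa and XO did not overlap in any of the sections, and p was 0.0667 for each (exact permutation). Without XO 3, 5 and 9, which leaves XO 6, the locus difference was -18.1 points (exact permutation p = 0.333, the smallest that 3 arrangements allow).

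The other autosomal tiles were lower in XaXa as well. Their mean level was 45.5% ± 2.80 (SD, n = 4) for XO, and for XaXa it was 27.7% ± 4.23 (SD, n = 2). Relative to them the locus stood at -9.88 ± 0.185 points (SD, n = 2) and -11.7 ± 1.74 points (SD, n = 4), and these values overlapped (difference 1.77 points, exact permutation p = 0.2). Against other autosomal tiles of like CpG number XaXa stood at -10.5 and XO at -12.7 points, with no overlap (difference 2.24 points, exact permutation p = 0.133). Without XO 3, 5 and 9 these differences were 0.807 and 1.38 points. As a ratio, the locus level was 0.640 ± 0.0481 (SD, n = 2) of that of the other tiles for XaXa, and for XO this was 0.742 ± 0.0543 (SD, n = 4), which also overlapped (exact permutation p = 0.2). In the 37 tiles of the locus with an XO mean of at least 10%, the XaXa mean was 0.508 times the XO mean in the median tile (quartiles 0.409 and 0.596), with a range of 0.283 to 0.776. The median over other autosomal tiles chosen by the same bound was 0.607 (quartiles 0.517 and 0.679). By section of the locus the medians were 0.493 in alpha, 0.580 in beta and 0.488 in gamma. The tiles were chosen by the XO mean, which also divides these ratios, and this choice can lower them. The difference between the locus and the other tiles in these medians was not tested.

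In the model 26 of 48 tiles were lower and none was higher in XaXa than in XO, beside 59.8% lower and 0.0141% higher among all tiles, and the difference was negative in 47 of 48. The median difference was -12.3 points in the locus and -20.65 points over all tiles. With an unadjusted p under 0.05 in the same quasi-binomial model there were 30 tiles. When log2 ratios were tested by limma instead, 20 tiles were called, all lower. The share over all tiles is given here for the main calls only, not for counts in other settings. The lower tiles were 8 of 13 in alpha, 5 of 6 in beta and 13 of 29 in gamma. Many gamma tiles had low levels in both groups: 13 to 17 of the 29 were under 20% in the XO libraries and 20 and 25 in XaXa 7 and 8. Without XaXa 8, the deepest library, 11 tiles were lower, 2 of them in gamma and the median difference was -10.3 points. Without XO 3, 5 and 9, 21 tiles were lower.

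The largest difference was at chr18:37092001-37093000 in alpha, with 15 CpGs. It was at 22.5% and 13.4% in XaXa 7 and 8, and at 72.0%, 42.6%, 74.2% and 64.9% in XO 3, 5, 6 and 9. All XO libraries were above both XaXa libraries, but XO 5 lay far below the other XO libraries (difference -45.5 points, adjusted p = 0.000682). The beta tiles at chr18:37455001-37456000 and chr18:37425001-37426000 differed by -38.3 and -37.9 points (adjusted p = 0.000636 and 0.000643). In the former, XaXa 7 and 8 were at 35.1% and 27.8% and the XO libraries at 64.2% to 73.6%. Differences of -36.4 and -34.8 points were found at chr18:37315001-37316000 in alpha and at chr18:37875001-37876000 in gamma. The last of these had the highest XO level in gamma, at 72.8% ± 17.2 (SD, n = 4), with XO 9 at 48.15% close to XaXa 7 at 42.7%. The alpha tile at chr18:37152001-37153000, with 36 CpGs, had the largest SD among XO, with 65.7%, 43.0%, 59.4% and 25.8% in XO 3, 5, 6 and 9 and 23.3% and 16.3% in XaXa 7 and 8 (difference -28.7 points, adjusted p = 0.00416). Without XaXa 8 this tile was not called (adjusted p = 0.0751). Without XO 3, 5 and 9 the 6 tiles of this paragraph differed by -56.2 to -30.8 points (adjusted p 0.00208 to 0.0107).

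**Figure D4:**
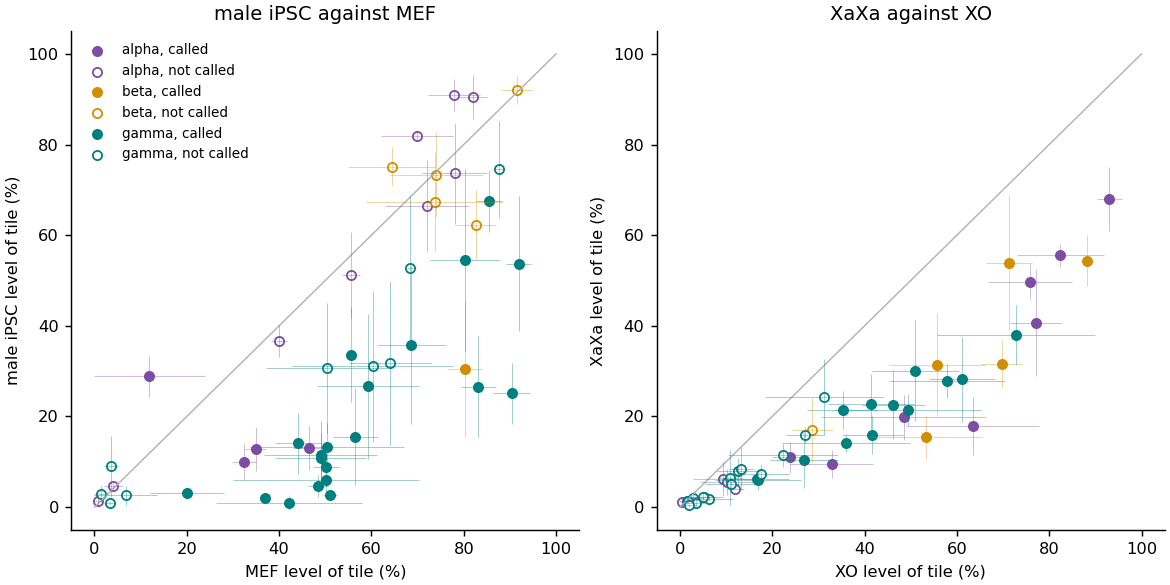
Mean level (%) of each of the 48 tiles in male iPSC against MEF (left) and in XaXa against XO (right), with SD as bars and the line of equal levels. Filled points were called in the model. On the left all gamma tiles with an MEF mean above 30% lie below the line, while the alpha and beta tiles lie on both sides of it, apart from the 3 alpha tiles and 1 beta tile that were called lower. On the right the tiles of all 3 sections lie below the line wherever XO is methylated.

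XaXa iPSC also had lower levels than male iPSC, in the comparison of a pair of active X chromosomes with a single X and a Y. The locus difference was -15.8 points (male iPSC were at 33.7% ± 5.35, SD, n = 3; two-sided exact permutation p = 0.1, the smallest that 10 arrangements allow), with both XaXa libraries below all 3 male libraries. By section it was -20.9 points in alpha and -32.9 points in beta (exact permutation p = 0.1 for each) and -9.97 points in gamma (exact permutation p = 0.2). Without male iPSC 4 the gamma difference was -6.29 points. Relative to other autosomal tiles the groups overlapped, at -9.88 ± 0.185 points (SD, n = 2) and -11.01 ± 4.0 points (SD, n = 3; exact permutation p = 0.9). Divided by the level of the other tiles, XaXa lay below male iPSC with no overlap, at 0.640 and 0.752 for the locus (exact permutation p = 0.2). The ratios did not overlap in alpha (0.804 and 0.968) or beta (1.21 and 1.495; exact permutation p = 0.1 for each, adjusted 0.267). They overlapped in gamma (0.448 and 0.501; exact permutation p = 0.9). In the model 21 tiles were lower and none was higher, 8 in alpha, 6 in beta and 7 in gamma, beside 53.4% lower and 0.115% higher among all tiles. The quasi-binomial model gave 23 tiles with an unadjusted p under 0.05. Testing log2 ratios by limma gave 16 calls, all lower. Without XaXa 8 the number was 11, with 6 in alpha, 3 in beta and 2 in gamma. Without male iPSC 4 it was 17, with 4 in gamma. Apart from the main calls, these counts have no share over all tiles beside them.

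The largest of these differences was in beta. At chr18:37425001-37426000 XaXa 7 and 8 were at 18.8% and 11.97%, and male iPSC 1, 2 and 4 at 56.3%, 67.9% and 78.1%. The difference was -52.1 points with no overlap (adjusted p = 0.000751). The SSEA1 negative library was at 40% (95% Wilson interval 29.7 to 51.3) at this tile, below both MEF at 84.2% and 63.2%. The tile at chr18:37524001-37525000, the most methylated in beta, was at 58.3% and 50.3% in XaXa and 88.6% to 94.96% in male iPSC (difference -37.8 points, adjusted p = 0.000751). In gamma the largest difference was at chr18:37913001-37914000, from 67.5% ± 6.88 (SD, n = 3) to 30.1% ± 11.1 (SD, n = 2; -37.4 points, adjusted p = 0.000861). At chr18:37915001-37916000, where male iPSC had little methylation, the levels did not overlap but differed by only -1.25 points, from 2.64% ± 0.527 (SD, n = 3) in male iPSC to 1.39% ± 0.390 (SD, n = 2) in XaXa, and the adjusted p was 0.698.

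XO and male iPSC, which the labels give as carrying a single X each, did not differ in the locus beyond the spread between libraries. The levels were 33.9% ± 4.44 (SD, n = 4) and 33.7% ± 5.35 (SD, n = 3), a difference of 0.219 points that is smaller than either SD (exact permutation p = 0.971, where 0.0286 was the smallest possible). By section the difference was -2.32 points in alpha, -5.65 in beta and 2.57 in gamma (exact permutation p = 0.4, 0.257 and 0.571). Without XO 3, 5 and 9 it was 2.31 points over the locus, and -0.235, -2.78 and 4.496 points in the 3 sections, and no tile was called. No tile was called in the quasi-binomial model in either direction, with 3 tiles at an unadjusted p under 0.05 and 0 called by limma on log2 ratios, beside 0.00235% lower and 0.00235% higher among all tiles. Differences ranged from -16.5 to 15.4 points. The widest, at chr18:37913001-37914000, set XO at 51.0% ± 9.45 (SD, n = 4) against male iPSC at 67.5% ± 6.88 (SD, n = 3; adjusted p = 0.886). At chr18:37981001-37982000 in gamma XO was higher, at 26.8% ± 7.43 (SD, n = 4) against 11.5% ± 7.49 (SD, n = 3), with 17.3% in XO 6 and 20.04% in male iPSC 4 overlapping (adjusted p = 0.881). The difference there was 15.4 points, and 5.82 points without XO 3, 5 and 9. As a ratio to other autosomal tiles the beta section was lower in XO (1.34 ± 0.0467, SD, n = 4) than in male iPSC (1.495 ± 0.0860, SD, n = 3), with no overlap and an exact permutation p of 0.0286, which was 0.267 after adjustment over 24 contrasts. The alpha ratio was also lower in XO with no overlap (0.898 and 0.968, exact permutation p = 0.0571, adjusted 0.267). The gamma ratios of 0.548 and 0.501 overlapped (exact permutation p = 0.571).

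Replicate libraries varied in the locus, and this spread was not tested. The median SD of a tile was 6.08 points among the male iPSC and 5.88 among the XO libraries, against 3.70 and 4.82 over the remaining tiles. Among XaXa it was 3.69 against 3.57 points and among MEF 4.25 against 3.28. Tiles with 40 or more CpGs were 8079 of 41246 other autosomal tiles but 4 of 48 in the locus. In those other tiles the mean level was 8.66% in male iPSC and 9.68% in XO. The SDs were not compared at like level or CpG number. In the gamma section male iPSC 1, 2 and 4 were at 16.5%, 21.1% and 29.9%, and in the alpha section at 40.6%, 43.2% and 46.0%. The largest SD of a tile was 20.1 points in male iPSC and in MEF.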

How the data were processed

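Reduced representation bisulfite sequencing was aligned by the authors to mm9 with BSMAP, per the submitters' processing notes; their read filters are not stated there. The deposited tables give, per CpG and library, the count of all reads and of methylated reads, and their ratio as a fraction, per the file headers. The counts were used here.

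Reads were summed over 1 kb tiles, keeping tiles with at least 20 reads and 2 CpGs in each of the 13 libraries. Section levels are unweighted means over tiles, compared over libraries by exact two-sided permutation tests with Benjamini-Hochberg adjustment. Tiles were tested by a quasi-binomial model of the 4 replicated groups (11 libraries; R 4.3.3, limma 3.58.1 for the moderated dispersion, F test), adjusted over all 42519 tiles. A tile was called at an adjusted p under 0.05 and 10 points. The planned fit weighted tiles by all reads. Tested on simulated data, it called 1042, 556, 86 and 2 of 42319 unchanged tiles in XaXa against XO, XaXa against male, XO against male and male against MEF. Reads were therefore weighted to an effective number with a within-library correlation of 0.0167, which called 0 in each and recovered 11, 6, 10 and 0 of 100 tiles changed by 20 points and 100, 94, 100 and 73 of 100 changed by 40 points. This was chosen after that test, with full weights as an alternative. In this simulation sensitivity to changes of 20 points was low, most of all for male iPSC against MEF. The simulated reads were drawn with this same correlation, so the 0 calls rest on it. Few tiles were changed there, against 59.8% called lower in XaXa against XO in the data, so sensitivity in the data was not measured.

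Named tiles are the 5 called tiles with the largest difference per comparison and direction, the 3 with most CpGs per section and, where none was called, the 3 with the largest difference; other tiles named were chosen after their values were seen. Members and lists were chosen with earlier results of these data known. Wilson 95% intervals cover counting error only, and PCR reads are not independent molecules. Alternatives changed read minimums, CpGs, weights, tool (limma on log2 ratios, pseudocount 0.5), samples in the fit and libraries.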

Additional observations from a re-analysis of the deposited data

How the results depend on the processing

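Levels differed in the reported direction under every alternative run for the locus, beta and gamma in XaXa against XO, XaXa against male iPSC and male iPSC against MEF, but their size moved. With CpGs read 5 times in every library the alpha difference was -37.4 points in XaXa against XO and -38.3 in XaXa against male iPSC, and the beta difference was -5.76 in male iPSC against MEF. With 50 reads per tile the gamma difference was -6.81 in XaXa against XO and -3.73 in XaXa against male iPSC. In XO against male iPSC all alternatives gave -3.87 to -0.235 in alpha and -7.53 to -2.78 in beta. The alpha difference between male iPSC and MEF was 4.42 points with 50 reads per tile. Values relative to other autosomal tiles changed sign in XaXa against XO with 50 reads per tile (-0.475) and with CpGs read 5 times in every library (-1.58, and -2.61 against tiles of like CpG number). In XaXa against male iPSC they did so with 50 reads (-0.940), these CpGs (-1.97, and -3.11 for like CpG number) and reads summed over tiles (-2.25). Without XO 3, 5 and 9 the relative values of XO against male iPSC were 0.329 and, for like CpG number, 0.0563, where all libraries gave -0.639 and -0.812. With 10 reads 43 of 71 tiles were called in XaXa against XO. It was 6 of 15 with 50 reads and 10 of 18 with the common CpGs, beside 26 of 48 in the main run. In XaXa against male iPSC it was 36 of 71, 4 of 15 and 9 of 18, beside 21 of 48 in the main run. Over tiles read in these 2 groups it was 43 of 83. In male iPSC against MEF it was 7 of 15 with 50 reads and 6 of 18 with the common CpGs. These counts are over different numbers of tiles, and the cause of changes in the share called was not tested. Shares over all tiles are given for the main calls only. Leaving out each library in turn gave 11 to 26 called tiles in XaXa against XO and 11 to 23 in XaXa against male iPSC, both lowest without XaXa 8. It gave -0.169 to 3.44 points for XaXa against male iPSC relative to other autosomal tiles. For XO against male iPSC it gave -2.09 to 3.15 points over the locus, -0.417 to 6.25 in gamma, -1.94 to 1.66 relative to other autosomal tiles and -2.07 to 1.39 for like CpG number. No paired analysis was possible because the groups compared share fewer than 2 replicate numbers.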
